A study of Mus musculus with 7 samples.

Results

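Interleukins and their receptor chains were described in kidney RNA of LBR-null mice and a WT littermate. The members are all gene symbols that begin with Il and a digit, which gave 83 of the 24328 symbols measured. By name these are 38 ligands, 41 receptor chains and 4 others, namely the receptor antagonist Il1rn, the binding protein Il18bp, the enzyme Il4i1 and Il1bos, a transcript from the strand opposite Il1b. The LBR-null group was 3 mice (4001, 4002 and 4007) homozygous for the ichthyosis allele of the lamin B receptor gene (genotype Lbric-J/ic-J), and the WT group was 1 mouse (4009, genotype Lbr+/+). All were C57BL/6J mice aged 4 weeks, and the allele is carried in every cell of the animal, so what arises in the kidney and what arises elsewhere in the body cannot be told apart. There were 2 libraries from each of mice 4001, 4007 and 4009 and a single one from mouse 4002, all made from polyadenylated RNA of the right kidney. Values are normalized counts, that is, reads on a gene divided by the size factor of the library, averaged over the libraries of a mouse before the mice were compared. Errors are the SD over the 3 mutant animals, and a single WT animal leaves the variation within its genotype unmeasured.

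Interleukins are secreted signals of immune and epithelial cells that bind receptors assembled from 2 or more chains. Several receptors share a chain: gp130 (Il6st) serves the IL-6 family, the common gamma chain (Il2rg) serves the IL-2 family, and Il10rb serves IL-10, IL-22 and the interferon lambdas. Most of these receptors have no kinase of their own and act through Janus kinases and STAT factors, whereas receptors of the IL-1 and IL-17 families act through adaptors that lead to NF-kB. In kidney the tubular epithelium carries many receptor chains, while most ligands come from resident or infiltrating leukocytes, fibroblasts or stressed tubules. The study sorts genes by CpG islands, stretches rich in CG dinucleotides at gene starts, so the bases before the start of 3 receptor genes whose libraries did not overlap between groups are shown, with each CG in capitals. They are from RefSeq on GRCm38.p6, read 5′ to 3′ on the strand of the gene and end just before its start.
Il6ra, chr3:89913197-89913446, minus strand: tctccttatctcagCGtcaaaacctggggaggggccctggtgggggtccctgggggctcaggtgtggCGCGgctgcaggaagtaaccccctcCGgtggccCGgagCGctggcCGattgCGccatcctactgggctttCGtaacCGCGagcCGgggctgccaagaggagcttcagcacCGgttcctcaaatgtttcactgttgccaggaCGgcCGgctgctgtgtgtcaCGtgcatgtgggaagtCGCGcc
Il2rg, chrX:101268256-101268505, minus strand: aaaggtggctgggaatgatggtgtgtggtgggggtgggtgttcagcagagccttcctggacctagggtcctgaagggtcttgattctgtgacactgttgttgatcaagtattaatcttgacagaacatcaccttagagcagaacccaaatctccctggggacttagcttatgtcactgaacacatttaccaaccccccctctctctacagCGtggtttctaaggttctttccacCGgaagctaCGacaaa
Il22ra1, chr4:135727909-135728158, plus strand: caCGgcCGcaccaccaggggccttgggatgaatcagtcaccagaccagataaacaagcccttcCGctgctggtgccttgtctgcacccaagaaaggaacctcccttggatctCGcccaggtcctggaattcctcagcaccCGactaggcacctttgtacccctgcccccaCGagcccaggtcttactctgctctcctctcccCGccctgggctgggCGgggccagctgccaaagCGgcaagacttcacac

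The stretch of Il6ra holds 18 CG in 250 bases, that of Il22ra1 holds 9 and that of Il2rg holds 3. Over the whole window of 300 bases, which adds 50 bases after the start, a window was called CpG-rich with a GC content of at least 50% and an observed over expected CG ratio above 0.6. This call is not the study's class. The study required both an island annotated by sequence and a region found by experiment near the start of the gene. A window was at hand for 66 of the 83 members, and 12 of these (18.2%) were CpG-rich, against 48.4% of the 17177 genes measured that have one. The share was 2 of 28 ligands (7.14%) and 10 of 34 receptor chains (29.4%). The 3 genes shown are examples, and other receptor genes without overlap had the reverse pattern of CG and direction. Il3ra, lower in LBR-null kidney, had 35 CG in its window, and Il20rb and Il7r, both higher, had 1 each. The motif TTCNNNGAA, which is bound by STAT factors and reads the same on both strands, occurred in 9 of the 66 windows (13.6%) and in 8.02% of all genes' windows.

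Of the 83 members, 54 reached an average of both group means of at least 5 normalized counts and were tested, namely 17 ligands, 34 receptor chains and 3 others. Another 24 had reads but lay below this limit, with an LBR-null mean of at most 7.94, and 17 of them were ligands. Il17a, Il20, Il22, Il3 and Il11ra2 were listed at 0 in all 7 libraries, which held 20694016 to 26333284 reads on genes. Il11ra2 is a near copy of Il11ra1, and how reads that fit both were counted is not given in the sources used here. A read was worth 0.787 to 1.15 normalized counts, so a ligand at 10 normalized counts rests on about as many reads in a library. Among the 54, 9 had fewer than 5 normalized counts in WT and passed the limit only through the LBR-null mice and so had to be higher there.

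Xist, the RNA of the inactive X chromosome, was at 5785, 65.3 and 9940 normalized counts in mice 4001, 4002 and 4007 and 35.5 in the WT mouse, and the Y-linked Ddx3y was at 141, 1516, 44.3 and 1284. The libraries of mice 4001 and 4007 thus held RNA of both genes, the labels give no sex, and whether they hold RNA of a single animal was not tested. Every LBR-null mean and SD below rests on these mice, and their difference from the WT mouse in these genes cannot be told apart from genotype except through mouse 4002. In mouse 4002 alone, a single library, 12 of the 16 members that were 2-fold higher by the mean of the 3 mice were 2-fold higher, as were all 5 of those 2-fold lower. Over all tested members mouse 4002 had 13 at least 2-fold higher and 6 at least 2-fold lower, against 10.6% and 7.52% of all genes.

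Per kilobase of exon, receptor chains were the abundant members. Il11ra1, the IL-11 receptor, led with 472 normalized counts per kb in LBR-null and 500 in WT, followed by Il6st with 424 and 474 and Il10rb with 308 and 428. The other 5 of the 8 highest receptor chains, ranked by the average of both groups, were Il17rc (198 and 235), Il13ra1 (199 and 198), Il17re (130 and 154), Il17ra (109 and 131) and Il4ra (131 and 101). The 5 highest ligands by the same average were Il15 (196 and 197), which sustains NK and memory T cells, Il34 (114 and 103), a ligand of the macrophage receptor Csf1r, the epithelial alarmin Il33 (101 and 109), Il17d (56.8 and 49.5) and Il18 (21.3 and 34.6). Of the 24 members at 50 or more normalized counts, a limit set after the values were seen, 18 differed by less than 1.5-fold between the groups. Neither the order of Il11ra1 and Il6st nor that of Il15 and Il13ra1 is larger than the spread between mice.

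**Figure D1:**
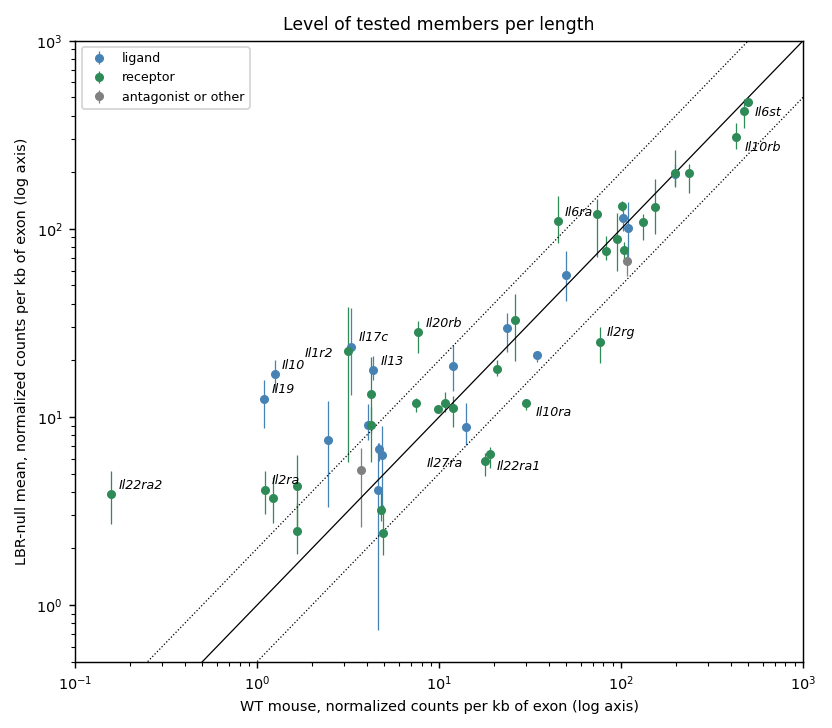
Level of the tested members in the WT mouse (x axis) and as the mean of the 3 LBR-null mice (y axis), both in normalized counts per kb of exon on log axes, where bars span the lowest to the highest LBR-null mouse, the solid line marks equal levels and dotted lines a 2-fold difference. Abundant chains such as Il6st and Il10rb lie near the line of equal levels, Il6ra and Il20rb lie above the upper dotted line, Il2rg, Il10ra, Il27ra and Il22ra1 below the lower one, and most members far from the line are at the left, where levels are low.

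Against WT, 16 of the 54 tested members were at least 2-fold higher in LBR-null kidney and 5 were at least 2-fold lower. Over all 17042 genes tested the shares were 13.2% and 7.39%, and 9 of the 16 higher members were those that had to be. Members were counted in fewer reads than most genes, and at 5 to 50 normalized counts 14 of 30 members and 39.3% of all genes were 2-fold higher, while 3 members and 10.5% of all genes were 2-fold lower. At 50 or more, 2 of 24 members (Il6ra and Il20rb) and 5.20% of all genes were 2-fold higher, and 2 members (Il2rg and Il10ra) and 6.45% of all genes were 2-fold lower. Every LBR-null library lay above both WT libraries for 14 of 54 members, against 24.7% of all genes, and below both for 7 members, against 26.2%. At 5 to 50 normalized counts 11 members lay wholly above and 2 wholly below, against 35.2% and 14.0% of all genes, and at 50 or more 3 lay above and 5 below, against 21.5% and 30.0%. Within each range of level the shares of members that were 2-fold apart were thus near those of all genes, and nothing in them sets the members apart. The median log2 fold change was 0.31 for the 17 ligands and -0.06 for the 34 receptor chains, against -0.01 over all genes tested. At 5 to 50 normalized counts the median was 0.76 for 12 ligands, 0.57 for 16 receptor chains and 0.48 for all genes, and at 50 or more it was 0.14 for 5 ligands, -0.18 for 18 receptor chains and -0.06 for all genes. The medians over all levels and those at 5 to 50 include ligands and receptor chains that had to be higher. These passed the limit of the test only through the LBR-null mice. Taken mouse by mouse, the median over ligands was 0.57, 0.42 and 0.43 above WT in mice 4001, 4002 and 4007. The median over receptor chains was -0.0050, 0.15 and -0.04. The medians by mouse include the same members that had to be higher and share a single WT mouse, so they are not independent of each other.

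**Figure D2:**
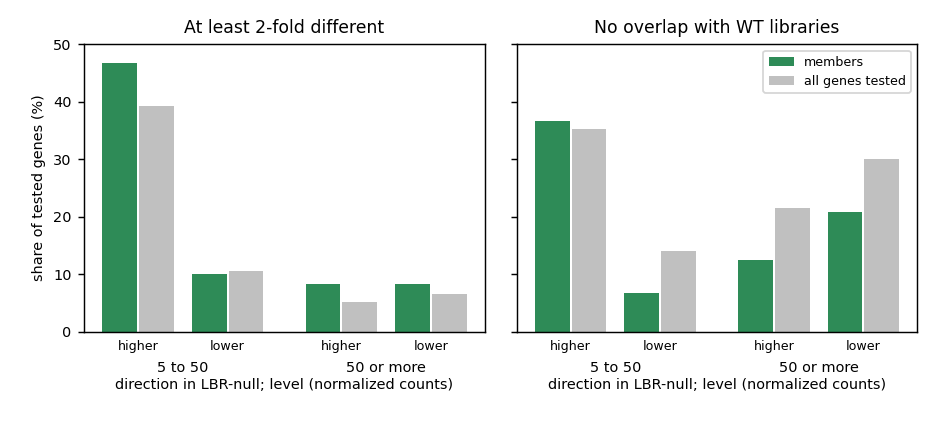
Share of tested genes, in percent, that were at least 2-fold higher or lower in LBR-null kidney (left) or whose LBR-null libraries all lay above or below both WT libraries (right), for members (green) and all genes tested (grey), in 2 ranges of level in normalized counts. At 5 to 50 normalized counts 46.7% of members and 39.3% of all genes were 2-fold higher, and at 50 or more the shares were 8.33% and 5.20%.

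No member passed limma at an adjusted p of 0.05 with a 2-fold change, and neither did any other gene (0% of 17042). Unadjusted limma p-values were under 0.05 for 12 members and for 18.2% of all genes tested. The smallest limma adjusted p of a member was 0.0950, for Il10, which is among the 9 members that passed the limit only through the LBR-null mice, as are Il22ra2 and Il1r2. On the recovered reads, edgeR called none of the members and 0.164% of all genes, with 13 members and 18.6% of all genes at an unadjusted p under 0.05, while DESeq2 called Il10, Il20rb and Il2rg and 6.99% of the genes it gave an adjusted p, with 14 members and 18.8% of all genes at an unadjusted p under 0.05. The outcome rested on single mice. Without mouse 4001, limma called 6.66% of all genes and 4 members (Il10, Il22ra2, Il20rb and Il2rg), and without mouse 4002 it called 3.45% and 2 members (Il1r2 and Il10). Fold changes below are on the scale of log2(normalized count + 1), which understates the change of low genes, and none of them passed the test with all mice.

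Of the 14 members that lay wholly above WT, 9 were highest in mouse 4007, 3 in mouse 4001 and 2 in mouse 4002. In bulk kidney, fewer cells of a type and less RNA per cell cannot be told apart. Kidney markers were present in all mice. The summed thick ascending limb list (3 genes, 1 lower on average) was at 58024 to 132775 normalized counts in LBR-null mice and 69578 in WT. The collecting duct list (5 genes, 2 lower) was at 31115 to 48918 and 31748, and the endothelium list (5 genes, 3 lower) at 12891 to 15054 and 14551. The distal tubule list (3 genes, all lower) was at 12908 to 24115 and 25765. The summed proximal tubule list (5 genes, 4 lower on average) was at 42377 to 46960 normalized counts in LBR-null mice and 102969 in WT, where Slc34a1 gave 64099, while Slc5a12 was 2.55-fold higher. The podocyte list (4 genes, all lower) was at 7832 to 15284 and 19161, and the fibroblast list (5 genes, 2 lower) at 9141 to 22135 and 23211. Col1a1 was 5.61-fold lower, while Dcn, Lum and Pdgfra had higher means with libraries that overlapped WT. The adipocyte list (5 genes, 4 lower) was at 5212 to 7774 and 6229, most of it from Fabp4, while Adipoq was at 13.3 against 120 and Cfd at 78.3 against 1015. The summed macrophage list (11 genes, 7 lower and 4 higher on average) was at 3604 to 3823 in LBR-null mice and 4660 in WT, the T cell list (9 genes, 5 lower) at 186 to 224 and 295, the B cell list (5 genes, all lower) at 86.2 to 160 and 171, the dendritic cell list (5 genes, 3 lower) at 153 to 216 and 284, and the NK cell list (6 genes, 2 lower) at 23.2 to 35.9 and 31.1. The neutrophil list (10 genes, 9 higher) was at 476 to 2731 in LBR-null mice, lowest in mouse 4002 and highest in mouse 4007, and at 204 in WT. No gene of these lists was at 0 in every library, and their part in any result below was not tested.

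**Figure D3:**
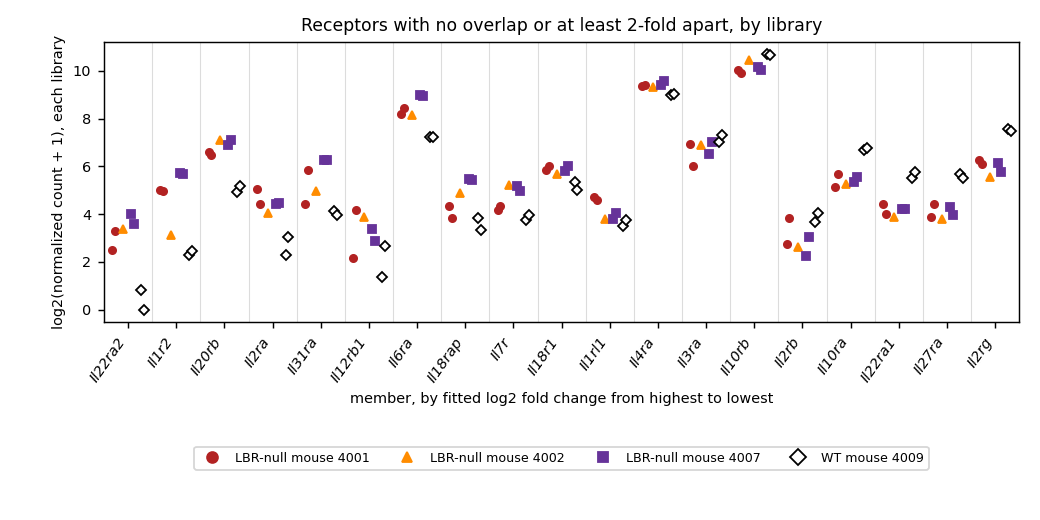
Receptor chains that were tested and either had no overlap between groups or were at least 2-fold apart, with log2(normalized count + 1) of each library on the y axis, LBR-null libraries filled and WT libraries open. Il6ra and Il20rb stand above WT and Il2rg, Il27ra, Il22ra1 and Il10ra below it in all 5 LBR-null libraries, while Il1r2 is spread widely between LBR-null mice.

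The IL-6 receptor was the most abundant member that was 2-fold higher. Il6ra, the chain that binds IL-6 itself (chromosome 3 of mm9, 89673246 to 89717084), was at 289 and 347 normalized counts in the libraries of LBR-null mouse 4001, 279 in mouse 4002, 503 and 497 in mouse 4007, and 151 and 148 in the WT libraries. All LBR-null libraries lay above WT, and mouse 4007 stood well above the others. The mean was 366 ± 118 (SD, n = 3 mice) against 150 in WT, a log2 fold change of 1.24 ± 0.39 (SE) with a limma adjusted p of 0.177. Its partner Il6st, the signal-transducing chain, overlapped WT at 2206 ± 388 (SD, n = 3) against 2470. Il6 itself was below the limit of the test, with 20 reads over the 5 LBR-null libraries and 11 over both WT libraries. Il11ra1 was at 2110 ± 49.8 (SD, n = 3) against 2233, the narrowest spread among the abundant chains.

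Among the chains of this family without an Il name, the LIF receptor Lifr was at 5434, 2939 and 4653 in mice 4001, 4002 and 4007 and 2093 in WT, a 2.08-fold higher mean with no overlap of libraries. The cytokine Lif was 2.50-fold higher at 34.6 ± 14.1 (SD, n = 3) against 13.9. Of the 12 acute phase genes and STAT3 targets, 9 were at least 2-fold higher, against 13.2% of all genes, and none 2-fold lower, with a median log2 fold change of 0.98. In limma 0 of them were called, with 4 at an unadjusted p under 0.05. For 3 of the 9 the higher mean came from mouse 4001 and libraries overlapped: Saa1 was at 207, 43.9 and 34.6 in mice 4001, 4002 and 4007 and 40.4 in WT, Saa2 at 181, 50.7 and 29.0 against 34.2, and Saa3 at 97.8, 28.4 and 29.0 against 23.5. Fga, a fibrinogen chain, was at 6124, 1217 and 3946 in the LBR-null mice and 529 in WT, Fgg at 1457, 301 and 1279 against 181, and Fgb at 918, 212 and 442 against 149. Lrg1 was at 372, 220 and 423 against 80.8, Cebpb at 1490, 1010 and 2124 against 708, and Lcn2, a tubular injury marker also made by neutrophils, at 684, 293 and 564 against 227. Mouse 4002 was the lowest LBR-null mouse for each of these 6 genes, as it was for Il6ra and for the neutrophil list. The feedback inhibitor Socs3 was at 168 ± 40.0 (SD, n = 3) against 105 with no overlap, and Socs2, which acts on growth hormone signalling, at 976 ± 316 against 362.

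Receptor chains of the IL-10 family differed from WT in both directions. Il20rb, shared by the receptors of IL-19, IL-20 and IL-24 (chromosome 9, 100358138 to 100387207), was at 96.5 and 87.0 normalized counts in mouse 4001, 137 in mouse 4002, 116 and 138 in mouse 4007, and 29.1 and 35.3 in WT. The lowest LBR-null library was above both WT libraries by more than the LBR-null libraries differed from each other on a fold scale. The mean of 118 ± 23.7 (SD, n = 3) against 32.2 was 3.68-fold higher, with a log2 fold change of 1.83 ± 0.40 (SE), a limma adjusted p of 0.115 and a DESeq2 adjusted p of 0.00396. Il22ra1, which pairs with Il10rb to bind IL-22 and with Il20rb to bind IL-20 and IL-24 (chromosome 4, 135284087 to 135308055), was lower than in WT. It was at 20.7 and 15.1 in mouse 4001, 13.8 in mouse 4002, 17.7 and 17.3 in mouse 4007, and 44.1 and 53.4 in WT, so the groups did not overlap. Its mean was 16.4 ± 2.28 (SD, n = 3) against 48.7, a log2 fold change of -1.53 ± 0.47 (SE) with a limma adjusted p of 0.171. Il20ra, the third chain of this group, had 6 reads over the LBR-null libraries and 0 in WT.

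The IL-10 receptor was lower in both chains. Il10ra, found mostly on leukocytes (chromosome 9, 45061922 to 45077232), was at 34.5 and 50.6 in mouse 4001, 37.8 in mouse 4002, 40.1 and 46.5 in mouse 4007, and 103 and 108 in WT. The mean was 41.2 ± 2.95 (SD, n = 3) against 105, a log2 fold change of -1.34 ± 0.39 (SE), with a limma adjusted p of 0.154. Il10rb (chromosome 16, 91406409 to 91426074) was at 1010, 1397 and 1108 in mice 4001, 4002 and 4007 and 1630 in WT. Its libraries did not overlap, the fold was 1.39 lower, and the limma adjusted p was 0.398. Ifnlr1, the partner of Il10rb in the interferon lambda receptor, was 2.15-fold higher at 200.1 ± 12.7 (SD, n = 3) against 93.0, also without overlap.

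The ligands of this family were counted in few reads, and Il10 and Il19 alone reached the limit of the test. Il10, an anti-inflammatory cytokine of leukocytes, was at 16.1 and 27.5 normalized counts in mouse 4001, 18.1 in mouse 4002, 27.0 and 25.5 in mouse 4007, and 2.36 and 0.905 in WT. All LBR-null libraries were above WT, where 4 reads were counted in all. The mean was 22.0 ± 4.11 (SD, n = 3) against 1.63, and the pooled reads gave a ratio of 13.7 with an exact 95% interval of 5.22 to 51.1, which covers counting error only. Il19 was at 13.8, 14.2, 9.46, 18.6 and 15.5 in the LBR-null libraries and 2.36 and 0 in WT, where 3 reads gave a ratio of 11.3 with an interval of 3.72 to 55.9. Il22ra2, a secreted decoy that binds IL-22, had 53 reads over the LBR-null libraries and 1 in WT, a ratio of 23.6 with an interval of 4.06 to 950. The log2 fold change of Il19 was 3.82 without the first WT library and 2.07 without the second. Il10, Il19 and Il22ra2 each had fewer than 5 normalized counts in WT and passed the limit of the test only through the LBR-null mice, so the limit itself fixed their direction. Il10, Il19, Il20 and Il24 lie side by side on chromosome 1 between 132778651 and 132921551, where Il20 was listed at 0 and Il24 had 4 reads over the LBR-null libraries and 3 in WT.

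**Figure D4:**
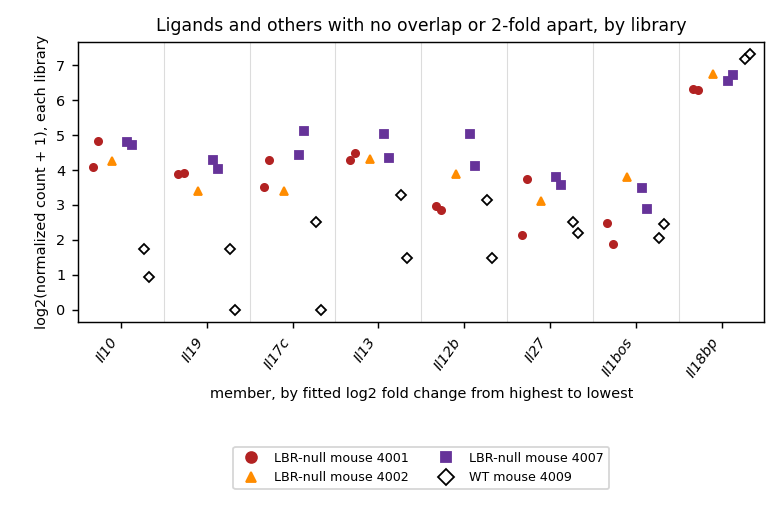
Ligands, the binding protein Il18bp and Il1bos that were tested and either had no overlap between groups or were at least 2-fold apart, with log2(normalized count + 1) of each library on the y axis, LBR-null libraries filled and WT libraries open. Il10, Il19, Il17c and Il13 lie above WT in all 5 LBR-null libraries, Il18bp lies below it, and the WT libraries of Il19 and Il17c include a 0.

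The common gamma chain was 3.04-fold lower. Il2rg, shared by the receptors of IL-2, IL-4, IL-7, IL-9, IL-15 and IL-21 (chromosome X, 98459717 to 98463594), was at 76.9 and 67.4 normalized counts in mouse 4001, 46.4 in mouse 4002, 68.9 and 53.8 in mouse 4007, and 187 and 177 in WT. The groups did not overlap, and the WT libraries were more than 2-fold above the highest LBR-null library. The mean was 60.0 ± 12.9 (SD, n = 3) against 182, a log2 fold change of -1.61 ± 0.41 (SE), with a limma adjusted p of 0.126 and a DESeq2 adjusted p of 0.0143. Of the LBR-null mice, mouse 4002 is the one that resembled the WT mouse in Xist and Ddx3y, and alone it was at 0.255 times the WT value of Il2rg. The X-linked Il13ra1, for comparison, was at 973, 623 and 620 in mice 4001, 4002 and 4007 and 736 in WT. Jak3, the kinase bound to the common gamma chain, was at 224, 341 and 336 against 485, with no overlap and a limma adjusted p of 0.333.

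The chains that pair with the common gamma chain differed in direction. Il2ra, the alpha chain of the IL-2 receptor and a mark of regulatory and activated T cells, was at 32.2, 20.4, 15.5, 20.5 and 21.0 in the LBR-null libraries and 3.94 and 7.24 in WT. Its mean was 20.8 ± 5.40 (SD, n = 3) against 5.59, with a limma adjusted p of 0.181. Il7r, needed by lymphocytes and innate lymphoid cells, was at 18.4, 36.1 and 32.7 in mice 4001, 4002 and 4007 and 13.5 in WT, also without overlap. Il2rb, the chain shared by IL-2 and IL-15, was 2.02-fold lower at 6.73 ± 2.43 (SD, n = 3) against 13.6, with libraries that overlapped. Il4ra, which serves IL-4 and IL-13, was at 674 ± 42.6 (SD, n = 3) against 516, a 1.31-fold difference with no overlap and a limma adjusted p of 0.450. Il15 was at 321, 420 and 378 against 375, and Il15ra and Il21r overlapped WT as well.

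Among the tested members of the IL-1 family the decoy receptor varied most between LBR-null mice. Il1r2, which binds IL-1 without signalling and is abundant on neutrophils, was at 31.0 and 30.2 normalized counts in mouse 4001, 7.74 in mouse 4002, 52.2 and 50.1 in mouse 4007, and 3.94 and 4.52 in WT. The LBR-null mice differed 6.61-fold between lowest and highest, and the neutrophil list had the same order of mice. The mean of 29.8 ± 21.7 (SD, n = 3) was 7.05 times that of WT, but Il1r2 also passed the limit of the test only through the LBR-null mice. Its log2 fold change was 2.22, and 2.96 without mouse 4002, where limma called it at an adjusted p of 0.0430 in a direction that the limit had fixed. Both chains of the IL-18 receptor were higher, Il18r1 at 60.1, 50.7 and 58.9 in mice 4001, 4002 and 4007 against 35.5, and Il18rap at 16.4, 28.4 and 42.4 against 11.2, where a library of mouse 4001 overlapped WT. Il18, their ligand, was at 15.0 ± 1.05 (SD, n = 3) against 24.3 and overlapped, while Il18bp, which neutralizes it, was at 94.8 ± 14.4 against 151 with no overlap and a limma adjusted p of 0.378. Il1rl1, the receptor of IL-33, was at 24.2, 12.9 and 14.3 against 11.5, with no overlap but within 1.5-fold, and Il33 was at 400.0, 188 and 281 against 313.

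Il1b was at 17.0, 6.02 and 12.9 in the LBR-null mice and 9.31 in WT, so the groups overlapped, and Il1a was below the limit of the test. Il1bos was at 3.63, 12.9 and 8.31 against 3.84 and passed the limit only through the LBR-null mice. The sources used here do not say whether reads were counted by strand, so reads of Il1bos and Il1b may not be separable. The signalling chains Il1r1 and Il1rap overlapped WT, at 344, 463 and 349 against 417 and at 227, 198 and 187 against 238. The 6 IL-1 receptor genes that lie together on chromosome 1 from 40141613 to 40608550 were all tested. The mean was higher in 4, including Il1r2, whose direction the limit fixed, and lower in 2. The lower ones, Il1r1 and Il1rl2, were at 0.925 and 0.932 of WT with libraries that overlapped. Among the 7 genes of the inflammasome list, Nlrc4 was 2.30-fold higher and Casp1 was 2.08-fold lower, both without overlap, and among 11 adaptors of IL-1 and Toll-like receptors none was 2-fold apart.

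In the IL-17 family the receptor chains were abundant and overlapped WT, with Il17ra at 478, 348 and 467 against 522, Il17rc at 412, 585 and 591 against 629 and Il17re at 284, 557 and 340 against 468. Il17rb, which binds IL-25, was at 193, 392 and 393 in mice 4001, 4002 and 4007 and 200.3 in WT, so mouse 4001 lay at the WT level and the other LBR-null mice lay above it. Il17c, an epithelial ligand of Il17re, was at 10.3 and 18.6 in mouse 4001, 9.46 in mouse 4002, 20.5 and 33.7 in mouse 4007, and 4.72 and 0 in WT. Its mean was 17.0 ± 9.09 (SD, n = 3) against 2.36, with 6 reads behind the WT value. It too passed the limit of the test only through the LBR-null mice, and its log2 fold change was 2.30, 4.05 without the first WT library and 1.53 without the second.

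IL-12 and IL-27 share receptor architecture with the IL-6 family. Il27ra, the chain that binds IL-27 with Il6st (chromosome 8, 86554186 to 86566488), was at 13.8 and 20.4 normalized counts in mouse 4001, 12.9 in mouse 4002, 18.6 and 14.6 in mouse 4007, and 49.6 and 45.2 in WT. The groups did not overlap and the LBR-null mice were close together, with a mean of 15.5 ± 2.30 (SD, n = 3) against 47.4. The log2 fold change was -1.56 ± 0.48 (SE), with a limma adjusted p of 0.168. The ligand subunit Il27 was 2.21-fold higher at 9.22 ± 2.40 against 4.17, Il12b, the subunit shared by IL-12 and IL-23, 3.05-fold higher at 14.8 ± 8.79 against 4.84, and Il12rb1 3.02-fold higher at 10.6 ± 2.98 against 3.50 (SD, n = 3 each). All 3 had libraries that overlapped WT, and all 3 passed the limit of the test only through the LBR-null mice. The WT libraries of Il12b were at 7.88 and 1.81 and those of Il12rb1 at 1.58 and 5.43. Leaving out the first or the second moved the log2 fold change of Il12b from 1.27 to 2.33 or 0.67 and that of Il12rb1 from 1.33 to 0.82 or 2.14. Ifng, which T cells and NK cells make in response to IL-12, was at 16.3, 8.60 and 17.5 against 3.60, and it too passed the limit of the test only through the LBR-null mice.

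Of the type 2 cytokines Il4, Il5 and Il13, Il13 alone reached the limit of the test. Il13, which drives mucus and fibrosis programmes, was at 18.4 and 21.3 normalized counts in mouse 4001, 18.9 in mouse 4002, 31.7 and 19.1 in mouse 4007, and 8.66 and 1.81 in WT, so the WT libraries differed more than 4-fold from each other. Its mean was 21.4 ± 3.51 (SD, n = 3) against 5.24, with a limma adjusted p of 0.143. The log2 fold change was 1.83, 2.98 without the first WT library and 1.20 without the second. The 3 genes lie side by side on chromosome 11 between 53416484 and 53538608. Il31ra, the itch-cytokine receptor chain that pairs with Osmr, was at 20.7 and 55.9 in mouse 4001, 30.1 in mouse 4002, 76.4 and 76.6 in mouse 4007, and 16.5 and 14.5 in WT, where the libraries of mouse 4001 differed 2.71-fold. Osmr was at 783, 585 and 1176 against 572 and overlapped. Tslp, an epithelial cytokine that uses Il7r, was higher without overlap, at 49.8, 45.6 and 47.0 against 18.2. Il3ra was at 107 ± 13.5 (SD, n = 3) against 145, with no overlap and a limma adjusted p of 0.541.

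Around the interleukins, limma called none of the genes on the 8 signalling lists. Among 10 Janus kinases and STAT factors none was 2-fold apart, and the median log2 fold change was 0.03. Among 8 SOCS inhibitors, Socs2 was 2-fold higher and Socs1 2-fold lower with overlapping libraries, and among 14 NF-kB factors and inhibitors Nfkbie was 2-fold lower at 58.3 ± 25.4 (SD, n = 3) against 119. Of 8 receptor chains without an Il name and Ebi3, a secreted subunit of IL-27, 2 (Lifr and Ifnlr1) were 2-fold higher and none 2-fold lower, against 13.2% and 7.39% of all genes. Of 8 other cytokines tested, 3 (Lif, Tslp and Ifng) were 2-fold higher, against 13.2% of all genes, and Ifng had to be. These 3 lie at 5 to 50 normalized counts, where 39.3% of all genes were 2-fold higher. Ctf1, Clcf1 and Csf1 lie at 50 or more, where the share was 5.20%. Csf1, the main growth factor of macrophages, was 2.62-fold lower at 174, 228 and 166 against 495. Tnf was below the limit of the test, with 20 reads over the LBR-null libraries and 8 in WT. Il34, the other ligand of Csf1r, was at 224 ± 32.2 (SD, n = 3) against 202 and overlapped, and Csf1r was at 1190 ± 112 against 1609 with no overlap.

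**Figure D5:**
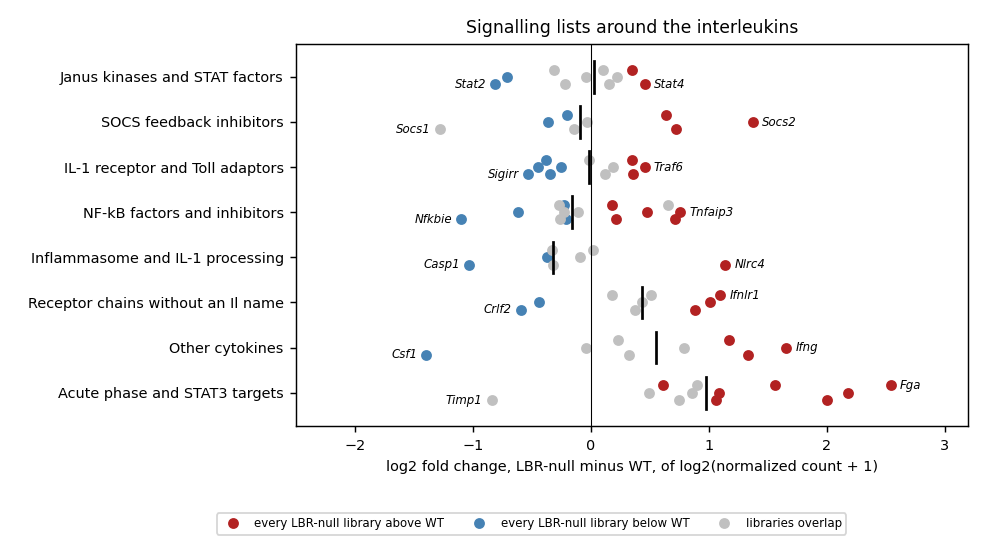
Log2 fold change (LBR-null minus WT, of log2(normalized count + 1)) of each tested gene of the 8 signalling lists, with the median of each list as a black bar and the lowest and highest gene named. The list medians run from -0.32 for inflammasome and IL-1 processing to 0.98 for acute phase genes and STAT3 targets, and Csf1 and Nfkbie are the genes furthest below WT without overlap.

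The remaining 15 tested members overlapped WT and were less than 2-fold apart. Il16, a chemoattractant for CD4+ cells, was at 234 ± 53.5 (SD, n = 3) against 186, Il17rd at 299 ± 116 against 238, and Il7, the stromal and epithelial ligand of Il7r, at 30.2 ± 8.89 against 48.2. Il11, a ligand of Il11ra1 linked to fibrosis, was at 18.1, 31.8 and 23.5 in mice 4001, 4002 and 4007 and 15.7 in WT. Il5ra and Il12rb2 were nearly level, at 39.0 ± 5.06 and 41.8 ± 2.10 (SD, n = 3) against 35.6 and 37.4.

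Of the 24 members with reads below the limit, 6 had every LBR-null library above WT and 0 lay wholly below, against 12.8% and 2.76% of the 4426 genes with reads below the limit, and 6 members had no read in WT. These 6 wholly above were picked out after their values were seen and have no test. Il25, the ligand of Il17rb made by tuft cells, had 39 reads over the LBR-null libraries and 0 in WT. Its mean was 5.48 times a floor of 3 reads over both WT libraries. Il1f8, an IL-36 ligand, had 33 and 0 reads and a mean 4.66 times that floor. Il1rapl1, a synaptic relative of the IL-1 receptor, had 23 and 0 reads and a mean 3.19 times the floor. These ratios leave out counting error in the LBR-null reads and the spread between mice. In mouse 4002, Il1rapl1 was at 1.72 normalized counts against a floor of 1.26. Il1f9, Il17b and Il1rapl2 had 28, 36 and 48 reads against 1, 3 and 2. The 6 genes of the IL-36 cluster on chromosome 2, from 24008681 to 24207014 (Il1f5, Il1f6, Il1f8, Il1f9, Il1f10 and Il1rn), all had a higher mean than WT, although only Il1f5 and Il1rn reached the limit and both overlapped WT. Low genes tended to be higher in general, with a median log2 fold change of 0.48 over all genes tested at 5 to 50 normalized counts.

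By promoter, members that lay wholly above WT and those wholly below had the same share of CpG-rich windows, 3 of 12 and 1 of 4 with a window (25% in each), and the small numbers and the members whose direction the limit fixed limit this to a description. The 12 include Il20rb, with 1 CG in its window, and Il6ra, with 25. At 5 to 50 normalized counts 1 of 23 members had a CpG-rich window (4.35%), against 31.4% of all genes at that level, and at 50 or more 10 of 19 (52.6%), against 70.8%. The STAT motif was in 7 of 23 windows of members at 5 to 50 normalized counts (30.4%), whatever their direction, and in 8.24% of those of all genes at that level. At 50 or more it was in 1 of 19 (5.26%), against 6.64%. By direction it was in 4 of 12 windows of members wholly above WT, 0 of 4 of those wholly below and 4 of 26 of the others, and Il19 and Il1r2, among the first 4, passed the limit only through the LBR-null mice.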

How the data were processed

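Reads were aligned to mm9 by the authors with STAR 2.6.0, and the deposited signal of a gene is its number of reads over the DESeq2 1.25.1 size factor; the counting program and annotation are not given in the sources used here. Dividing by the smallest step of a library returned whole reads for 100% of values, within 0.01 read. Replicates were mice, each the mean of its libraries; how paired libraries of 1 animal were prepared is not given in the sources used here. The members follow from their symbols, and the members, gene lists and tests were chosen with earlier results of these data known. limma 3.58.1 (R 4.3.3, eBayes with trend, 2 residual degrees of freedom, Benjamini-Hochberg) was run on log2(normalized count + 1) of 17042 genes whose group means average at least 5, which takes the spread of the single WT animal to equal that of the mutants. edgeR 4.0.16 and DESeq2 1.42.0 were run on recovered reads summed per mouse. Alternatives were other pseudocounts, filters and scalings, no trend, and leaving out each LBR-null mouse or library. Values are given for tested members free of overlap or 2-fold apart, the 5 ligands and 8 receptor chains highest per kilobase, Il1b and Il6, and for genes of the signalling lists that are 2-fold apart without overlap plus Ifng, Tnf, Socs3 and Lcn2; genes named beyond these, such as Jak3 and Osmr, were chosen after their values were seen. Exon lengths and mm9 positions are from GENCODE vM1, which matched 82 of 83 members; promoter windows, 1 a gene with the highest CG ratio, are from RefSeq on GRCm38.p6. A few genes of the signalling lists are not reported here and were left out of the counts and medians of their lists.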

Additional observations from a re-analysis of the deposited data

Results flagged for a closer look

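Over the 5 LBR-null libraries, Il13 in the first library of mouse 4007 stood apart, at 31.7 normalized counts against 18.4 to 21.3 in the others. The gap to the nearest library was 0.780 of the range, above the limit of 0.710 for 5 samples. Such a gap was looked for in 40 members, and chance gives it in about 1 group in 20, so a few would arise by chance. The second library of the same mouse was at 19.1.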

How the results depend on the processing

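With 1 WT mouse, about 1 normalized count per read and most ligands under 50 normalized counts, counting error and the unknown WT spread limit every value here. No paired analysis was possible because the replicate numbers of the labels count libraries within a mouse, and these were averaged. Members called numbered 0 in limma under every pseudocount, filter, scaling and trend setting tried and in edgeR, 3 in DESeq2, and 0 to 4 when a mouse or library was left out, with 4 without mouse 4001. Members 2-fold higher numbered 9 with a minimum of 10 normalized counts, 2 with a minimum of 50 (chosen after seeing the data) and 28 with no filter, and 12 to 17 when a mouse or library was left out. The minimum of 50 also gave 2 members 2-fold lower (4 to 5 in the leave-out fits) and 3 wholly above WT. Leaving out a mouse or library gave 14 to 23 members wholly above WT, the most without mouse 4001, and 7 to 14 wholly below, with 14 without mouse 4001, 12 without mouse 4002 and 12 without the first WT library. The ligand median was 0.51 with a mean over the 4 mice of at least 5, 0.19 with a minimum of 10, 0.14 with a minimum of 50 and 0.25 to 0.48 in the leave-out fits. The receptor median was -0.18 with a minimum of 50 and -0.077 to 0.075 in the leave-out fits. The log2 fold changes of 5 of 39 named members, all near 0, changed sign: Il17d ranged from -0.080 to 0.36 in the leave-out fits, Il33 from -0.44 to 0.10, Il1b from -0.061 to 0.62, Il15 from -0.11 to 0.088 and Il13ra1 from -0.24 to 0.080, and the last was 0.0090 in DESeq2 and 0.0046 in edgeR. The other 34 kept their direction under every alternative run. The causes of these shifts were not tested, apart from the number of genes or libraries each setting leaves.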
